A study of Mus musculus with 18 samples.

Results

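Matricellular genes encode secreted proteins of the extracellular matrix that modulate how cells attach to and sense the matrix. The group described here is made of 10 genes, taken by symbol from the 51290 genes of a gene-level count table: Postn, Tnc, Tnn, Tnxb, Thbs1, Thbs2, Sparc, Spp1, Tgfbi and Fn1. All 10 were found. RNA was measured by bulk poly(A) sequencing in 18 samples from mice, 6 in each of 3 groups. The nerve group was normal trigeminal nerve of Nf1 flox/flox mice typed PostnCre-. The plexiform neurofibroma, a benign tumour of the nerve sheath, was trigeminal nerve of Nf1 flox/flox mice typed PostnCre+. The malignant peripheral nerve sheath tumours (MPNST) came from mice that carried floxed Arf as well as floxed Nf1, again with PostnCre. Floxed Nf1 was therefore present in every group, the controls included. Nf1 encodes neurofibromin, a brake on Ras, and Arf is a tumour suppressor made from the Cdkn2a locus.

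Several features limit the groups as models. The Cre is driven by regulatory sequence of Postn, a member of the group. Cells in whose lineage the Cre was never active are expected to keep their floxed alleles. A tumour sample is thus expected to be a mixture of recombined and other cells, and the Postn level measured here does not show which cells recombined. The labels give ages for no group and a body site for the nerve and neurofibroma only. They also state that the nerve and neurofibroma samples were taken over from an earlier series, while the MPNST were new. For any MPNST comparison, tumour type, the Arf allele, body site and origin of the samples cannot be told apart. The 6 MPNST came from 6 mice. The labels do not say whether each nerve and neurofibroma sample came from its own animal, so p-values there measure the spread between samples.

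Periostin (Postn) and TGFBI (Tgfbi) are related proteins that bind integrins and collagen, and TGF-beta is a classical inducer of both. Tenascins (Tnc, Tnn, Tnxb) are large oligomeric proteins. Tenascin-C is known from embryonic tissue, wounds and tumour stroma, whereas tenascin-X belongs to mature connective tissue. Thrombospondins 1 and 2 (Thbs1, Thbs2) restrain blood vessel growth, and thrombospondin-1 can activate latent TGF-beta. SPARC (Sparc) binds collagen, osteopontin (Spp1) is a phosphoprotein that binds integrins and CD44, and fibronectin (Fn1) is a matrix scaffold on which other matrix proteins assemble. In nerve, the matrix is laid down by Schwann cells and by endoneurial and perineurial fibroblasts.

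The total of estimated counts ran from 13886399 to 23652959 per library. TMM factors, which correct for differences in library composition, lay between 0.96 and 1.14 except in MPNST library 2, at 0.406. Salivary gland markers took 39.3% of the counts of that library. Skeletal muscle markers took 4.69% of MPNST library 3. MPNST library 6 held pancreatic acinar markers at 0.320% of counts and sympathoadrenal markers at 0.340%. Its sensory neuron markers summed to 3009 CPM (TMM-scaled CPM, counts scaled to a common library size). Adipocyte markers summed to 249 CPM in MPNST library 1 and 119 in library 5, against at most 0.897 in nerve. They reached 197 CPM in neurofibroma library 1. Salivary gland markers summed to 290 CPM in MPNST library 5, against at most 64.7 in nerve and 41.5 in neurofibroma. MPNST libraries 1 and 5 were thus not free of markers of other tissues. The labelled nerve sheath identity was weak in MPNST, where 8 Schwann cell markers summed to between 77.9 and 1698 CPM, against 5289 to 14007 in nerve and 12609 to 21375 in neurofibroma. Nf1 lay between 79.0 and 158 CPM in nerve, between 64.5 and 86.5 in neurofibroma and between 41.3 and 111 in MPNST, with the highest MPNST value in library 6. Cdkn2a, which includes Arf, lay at 0.274 to 2.85 CPM in nerve and 3.44 to 8.38 CPM in neurofibroma; 5 MPNST held 0.284 to 10.2 CPM, and library 4 held 605. Counts over whole genes say nothing of the deleted exons, and recombination was not checked. Results on MPNST are therefore given with all 6 libraries and, where they differ, without libraries 2 and 6, without 2, 3 and 6, or without a single library.

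The 10 genes together took between 0.0471% and 0.175% of the counts in nerve, between 0.203% and 0.435% in neurofibroma, and between 0.0614% and 1.83% in MPNST. These ranges do not overlap between nerve and neurofibroma. The MPNST shares were 1.24%, 0.0614%, 0.929%, 1.83%, 0.834% and 0.106% in libraries 1 to 6, so that libraries 2 and 6 fell below every neurofibroma. In RNA from whole tissue, more or fewer cells of a type and more or less RNA per cell cannot be told apart.

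**Figure D1:**
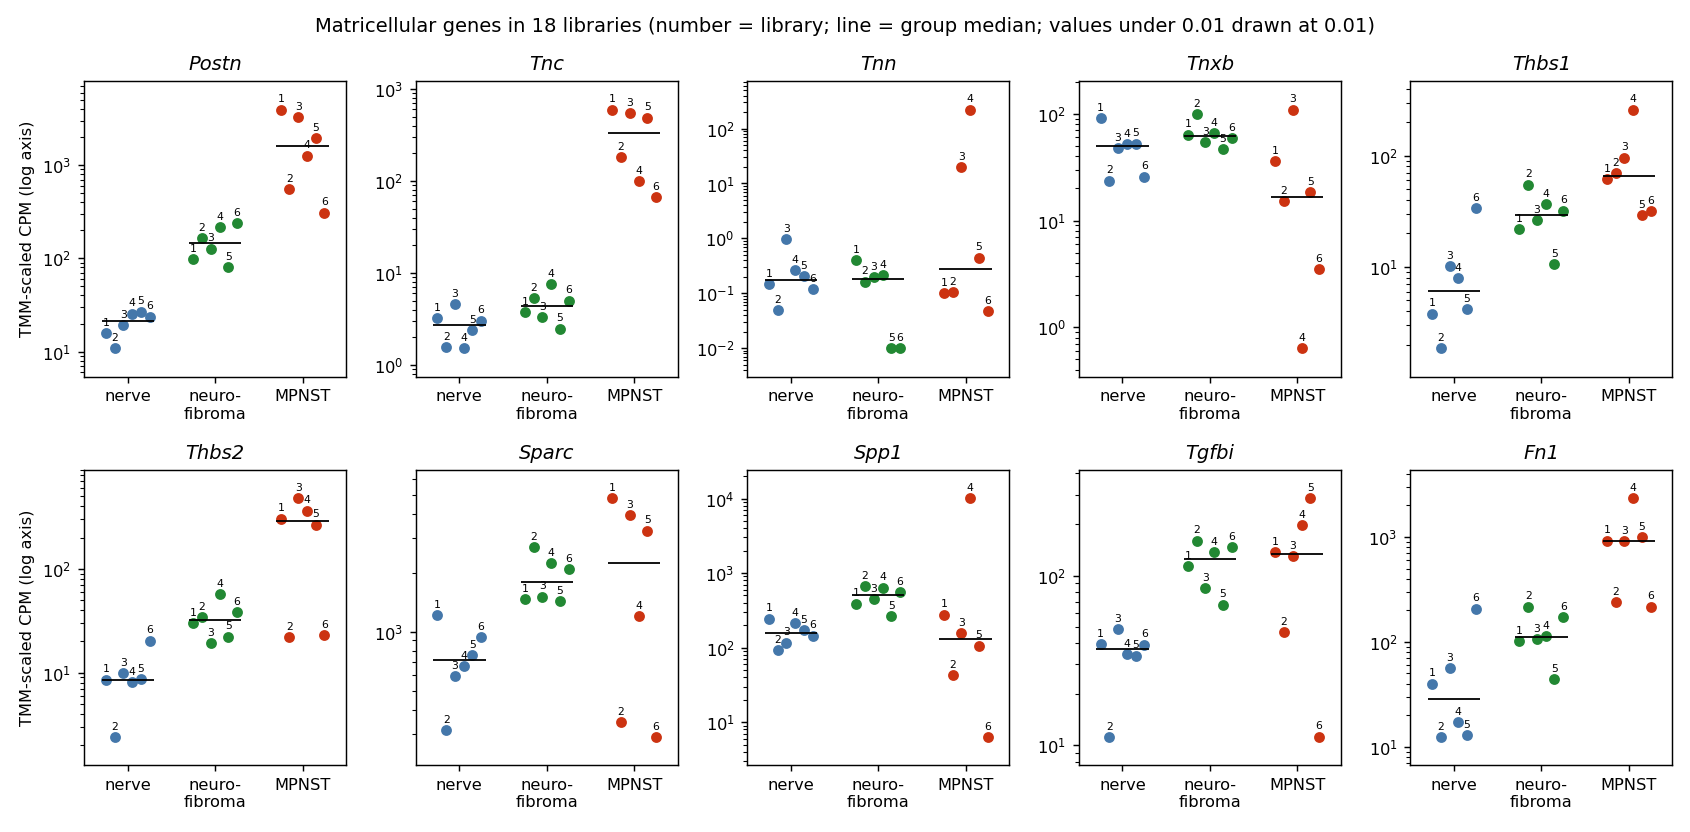
TMM-scaled CPM of each gene (vertical log axis) in the 6 nerve, 6 neurofibroma and 6 MPNST libraries; each point is a numbered library and each line a group median. Postn rises stepwise without overlap from a median of 21.5 through 146 to 1605 CPM, while Tnn and Spp1 in MPNST are spread by libraries that stand far above the rest, with library 4 highest in both.

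Postn and Tnc had the largest differences between MPNST and the other groups among the tested members, and Postn also supplies the driver of the Cre, so the sequences upstream of their starts are shown. They are the 250 bases before a RefSeq start of the mouse gene (GRCm38.p6; Postn at chr3:54360857-54361106 on the plus strand, Tnc at chr4:64047016-64047265 on the minus strand), 5′ to 3′, with the letters TATAAA in capitals.
Postn: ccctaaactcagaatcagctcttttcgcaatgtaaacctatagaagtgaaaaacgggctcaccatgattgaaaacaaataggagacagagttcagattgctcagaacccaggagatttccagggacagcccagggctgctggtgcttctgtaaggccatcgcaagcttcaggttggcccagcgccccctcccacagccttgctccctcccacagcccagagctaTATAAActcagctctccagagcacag
Tnc: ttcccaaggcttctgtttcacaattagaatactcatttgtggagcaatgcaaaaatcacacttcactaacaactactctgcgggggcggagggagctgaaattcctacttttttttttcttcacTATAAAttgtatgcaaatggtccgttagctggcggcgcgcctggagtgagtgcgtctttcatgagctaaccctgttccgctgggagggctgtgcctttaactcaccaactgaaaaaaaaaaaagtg
The Postn match lies 26 bases before the start, and the Tnc match lies 126 bases before it. Of 32851 windows of that length, 12.4% hold TATAAA on either strand. Among the 8 genes that matched the RefSeq table (Thbs1 and Fn1 did not), 3 held it: Postn, Tnc and Thbs2. The letters CAGAC, a half-site of Smad factors, stood in 5 of the 8 windows and in 42.2% of all windows, and neither Postn nor Tnc had them. An AP-1 motif (TGANTCA) was found in 1 of 8, Tnxb, against 6.75% of all windows. A TEAD motif (GGAATG) was found in 1 of 8, Tnn, against 12.6%. The paired Smad motif GTCTAGAC was found in 0 of 8 and in 0.167% of all windows. These matches describe letters only; the windows belong to the endogenous genes, and the fragment used in the Cre transgene is not given in the sources used here.

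The first comparison, of neurofibroma with nerve, asks how the matricellular genes differ when trigeminal nerve carries the Cre on an Nf1 flox/flox background. Of the 9 genes that passed the filter on low counts (all but Tnn), 5 rose and 0 fell, against 7.94% of all genes higher and 6.00% lower in the same fit (13.9% called in all). Postn, Tgfbi, Thbs2, Spp1 and Sparc rose. The median log2 change over the 9 was 1.54, beside -0.02 over all genes tested. Calls use edgeR's quasi-likelihood test with a Benjamini-Hochberg adjusted p below 0.05 over all genes.

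Postn ranged from 10.9 to 26.9 CPM in nerve (median 21.5; 20.4 ± 6.21, SD, n = 6) and from 80.6 to 241 CPM in neurofibroma (median 146; 155 ± 65.0, n = 6). The lowest neurofibroma stood well above the highest nerve. The log2 change was 2.92 (SE 0.31, adjusted p = 0.00106), or 7.56-fold. Tgfbi, the other member of the periostin family, moved in the same direction. It ranged from 11.2 to 48.3 CPM in nerve (median 36.8) and from 67.3 to 161 in neurofibroma (median 125), with a log2 change of 1.77 (SE 0.31, adjusted p = 0.00494). Again the groups did not overlap.

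Among the thrombospondins, Thbs2 ranged from 2.41 to 20.3 CPM in nerve (median 8.59) and from 19.1 to 57.3 in neurofibroma (median 32.1). The highest nerve and the lowest neurofibroma overlapped narrowly. Its log2 change was 1.76 (SE 0.41, adjusted p = 0.0162). Thbs1 ranged from 1.87 to 33.6 CPM in nerve (median 6.04) and from 10.6 to 55.0 in neurofibroma (median 29.3), and its log2 change of 1.54 (SE 0.62) did not pass the test (adjusted p = 0.110). Nerve library 6 held the highest nerve value of Thbs1 and also of Fn1. That library also had the highest summed level of oligodendrocyte and astrocyte markers among nerves, 1250 CPM. Several other marker sums were highest there too. These included pericyte and smooth muscle (495 CPM), sympathoadrenal (322), macrophage (165), endothelial cell (163) and platelet and megakaryocyte markers (18.5). The part of any of these in its Thbs1 and Fn1 levels was not tested.

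Sparc ranged from 315 to 1211 CPM in nerve (median 713) and from 1428 to 2695 in neurofibroma (median 1798). Its groups did not overlap, and the log2 change was 1.33 (SE 0.29, adjusted p = 0.0120). Spp1 ranged from 91.4 to 244 CPM in nerve (median 158) and from 264 to 672 in neurofibroma (median 501). Its log2 change was 1.58 (SE 0.27, adjusted p = 0.00479), also without overlap. Postn, Tgfbi, Sparc and Spp1 were thus the 4 members whose groups did not overlap, a pattern held by 4.69% of all genes in the upward direction. Fn1 ranged from 12.4 to 207 CPM in nerve (median 28.6) and from 43.8 to 217 in neurofibroma (median 110). Its log2 change was 1.08 (SE 0.67, adjusted p = 0.291).

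The tenascins did not pass the test in neurofibroma. Tnc ranged from 1.53 to 4.6 CPM in nerve (median 2.72) and from 2.48 to 7.57 in neurofibroma (median 4.37), with a log2 change of 0.73 (SE 0.32, adjusted p = 0.143). Tnxb ranged from 23.7 to 90.7 CPM in nerve (median 50.1) and from 47.0 to 100 in neurofibroma (median 61.6), with a log2 change of 0.41 (SE 0.30, adjusted p = 0.367). Tnn was close to 0 in both groups, at most 0.953 CPM in nerve and 0.398 in neurofibroma, and was not tested.

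Without nerve library 6 and neurofibroma library 1, which held the most skeletal muscle marker RNA of its group, 7 of 9 members were called higher, against 10.7% of all genes. Thbs1 (log2 change 2.54, adjusted p = 0.00645) and Fn1 (2.23, adjusted p = 0.0132) were the added calls. Leaving out nerve library 6 alone gave the same additions, at 2.45 for Thbs1 (adjusted p = 0.00467) and 2.18 for Fn1 (adjusted p = 0.00918). The libraries of each group stand in the count table in 2 runs of 3 columns, a possible batch that no label names. Postn differed by 3.10 within the first run (adjusted p = 0.0793) and by 2.77 within the second (adjusted p = 0.0754). Sparc, Spp1, Tgfbi and Thbs2 also had positive changes in both runs, between 1.22 and 2.01, and Fn1 was 1.99 in the first and 0.38 in the second. With 3 libraries a group, 0 members were called in either run by edgeR, and 7 in the first and 5 in the second had an unadjusted p below 0.05. In a joint fit of all 18 libraries, which shares 1 estimate of the spread with MPNST, 0 members were called and 5 had an unadjusted p below 0.05.

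**Figure D2:**
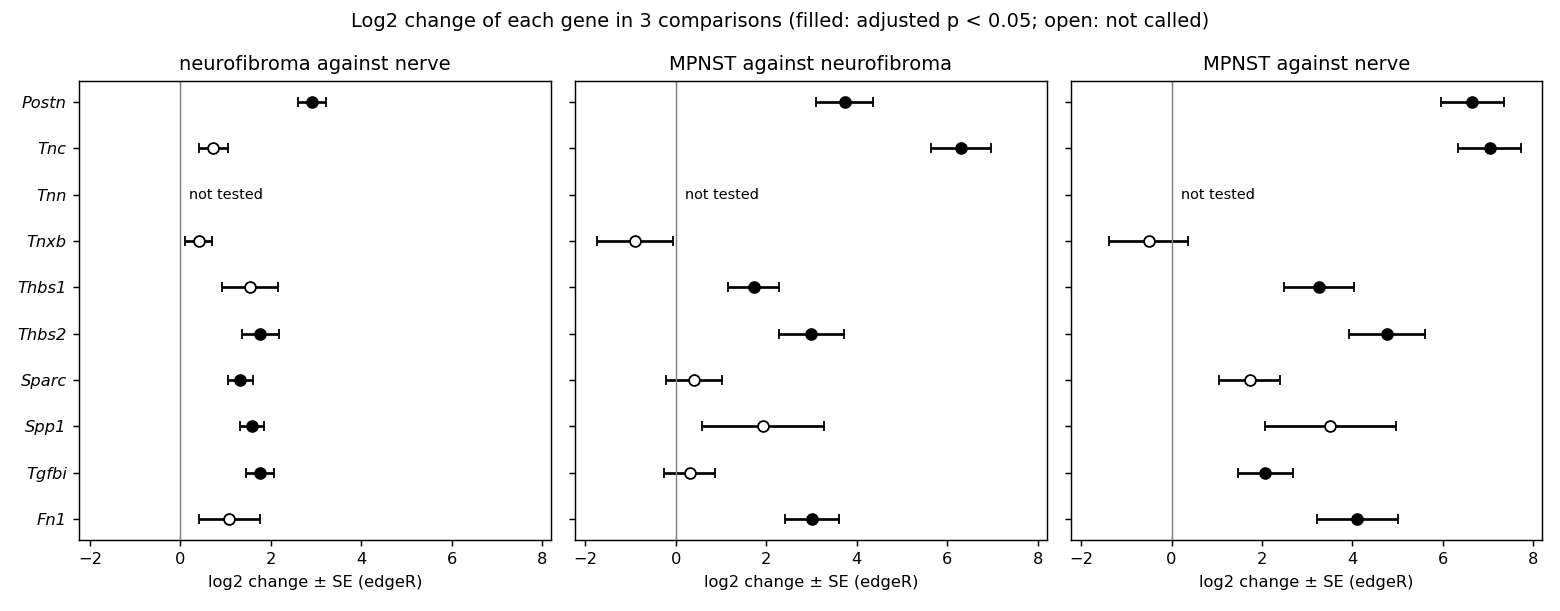
Log2 change with its SE (horizontal axis, edgeR) for each gene in the 3 comparisons; filled points passed an adjusted p below 0.05 and open points did not, and Tnn was not tested. Postn is filled in all 3 panels, at 2.92, 3.73 and 6.64, whereas Tnc is open in the first panel and filled at 6.31 and 7.03 in the others.

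The comparison of MPNST with neurofibroma sets the malignant against the benign tumour. Of the 9 genes tested, 5 rose and 0 fell: Tnc, Postn, Fn1, Thbs2 and Thbs1. In the same fit 25.3% of all genes were called higher and 16.8% lower (42.0% called in all), so this share of calls stands beside a large background. The median log2 change was 1.93 over the 9 members and 0.22 over all genes. Tnc, Postn and Fn1 did not overlap between groups, which 7.43% of all genes did in the upward direction.

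Tnc had the largest change of the tested members. Its MPNST libraries 1 to 6 held 596, 181, 543, 98.9, 489 and 66.2 CPM, against at most 7.57 CPM in neurofibroma. Even the lowest MPNST stood far above the highest neurofibroma. The mean was 329 ± 239 CPM in MPNST and 4.57 ± 1.82 in neurofibroma (SD, n = 6 each), and the log2 change was 6.31 (SE 0.66, adjusted p = 3.88e-05). Tnc was called under 24 other settings (tools, scalings, filters, thresholds and left-out libraries), with log2 changes between 6.07 and 6.64. It was also called within each run of columns, at 6.26 (adjusted p = 0.00619) and 6.35 (adjusted p = 0.0265).

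Postn reached 3938, 551, 3306, 1263, 1946 and 309 CPM in MPNST libraries 1 to 6. The lowest of these, library 6, was above the highest neurofibroma at 241 CPM. The mean rose from 155 ± 65.0 to 1886 ± 1475 CPM (SD, n = 6 each), with a log2 change of 3.73 (SE 0.62, adjusted p = 0.00082), or 13.3-fold. Without libraries 2 and 6, 5 members were again called higher, against 30.7% of all genes, and the log2 change of Postn was 4.15; within the runs of columns it was 3.97 (adjusted p = 0.0172) and 3.54 (adjusted p = 0.0807). Tgfbi, its relative, held 138, 46.2, 130, 198, 285 and 11.2 CPM in MPNST, a range that encloses that of neurofibroma. Its log2 change was 0.31 (SE 0.56, adjusted p = 0.683) with all libraries and -0.0154 without library 5. It was 0.86 (adjusted p = 0.0322) without libraries 2, 3 and 6, those with the most salivary gland, skeletal muscle or pancreatic acinar marker RNA. In that last fit 7 of 9 members were called higher, against 32.0% of all genes, with Tgfbi and Spp1 as the added calls. Within a library, the log2 ratio of Postn to Tgfbi (each as CPM + 1), which hardly depends on scaling, averaged -0.67 ± 0.52 across nerves, 0.34 ± 0.37 across neurofibromas and 3.86 ± 0.99 across the malignant tumours (SD, n = 6). The lowest MPNST ratio, 2.67, exceeded the highest neurofibroma ratio, 0.71.

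Fn1 held 925, 239, 918, 2335, 993 and 217 CPM in MPNST libraries 1 to 6. Library 6 and the highest neurofibroma were almost level. The log2 change was 3.01 (SE 0.59, adjusted p = 0.00213). Thbs2 held 306, 22.2, 479, 364, 267 and 23.0 CPM. Libraries 2 and 6 lay within the neurofibroma range, and the other libraries lay above it. Its log2 change was 3.0 (SE 0.71, adjusted p = 0.00595) with all 6 libraries and 3.48 without those 2. Thbs1 ranged from 29.4 to 259 CPM in MPNST (median 65.9), overlapping neurofibroma, with the highest value in library 4. Its log2 change of 1.72 (SE 0.55, adjusted p = 0.0261) was near the threshold. The call was lost without MPNST library 4 (1.10, adjusted p = 0.0659) and without neurofibroma library 1, 3 or 5 (adjusted p = 0.0571, 0.0545 and 0.0542).

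Of the tested members, Spp1 differed most among the malignant tumours. It held 276, 42.9, 157, 10055, 106 and 6.35 CPM in MPNST libraries 1 to 6. Library 4 stood above every neurofibroma, and 4 of the others stood below the lowest neurofibroma at 264 CPM. The fitted log2 change of 1.93 (SE 1.35, adjusted p = 0.265) therefore rests on library 4. Without that library it was -1.94 and passed the test as a fall (adjusted p = 0.0461). Without libraries 2, 3 and 6 it was 2.86 and passed as a rise (adjusted p = 0.0369), so the direction of the call depends on which libraries are kept. Library 4 also held the highest Fn1, Thbs1 and Tnn, the lowest Tnxb and Schwann cell marker sum, and Cdkn2a at 605 CPM. Its macrophage marker sum, 1551 CPM, was the second highest, whereas library 5, with the highest sum of 2299 CPM, held Spp1 at 106 CPM. Spp1 is also a bone matrix gene. A list of 6 cartilage and bone markers summed to between 2.75 and 9.26 CPM in the 6 MPNST, with 4.13 in library 4. The sums were at least 9.53 CPM in nerve and 11.6 in neurofibroma. Genes of that list did not move as one. Col10a1 reached 3.42 CPM and Bglap 5.31 CPM in MPNST, above every nerve and neurofibroma. Acan and Sp7 in MPNST lay below every nerve and neurofibroma, and Col2a1 and Alpl overlapped nerve. Dmp1 and Ibsp, 2 other bone genes, were chosen after their values were seen. Dmp1, a matrix gene of bone and dentin, was at 1269 CPM in library 4 and at most 2.41 CPM in the other MPNST. Ibsp, bone sialoprotein, was at 2.85 CPM in library 4 and at most 0.146 in the other MPNST. For Ibsp, all 6 MPNST were below every nerve (at least 5.36 CPM) and every neurofibroma (at least 5.21 CPM). The part of bone-like or macrophage RNA in the Spp1 level was not tested.

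Sparc held 4780, 344, 3919, 1196, 3269 and 290 CPM in MPNST. Libraries 1, 3 and 5 were above every neurofibroma and libraries 2, 4 and 6 below every one. The log2 change was 0.40 (SE 0.62, adjusted p = 0.631), and without libraries 2 and 6 it was 0.87 (adjusted p = 0.0540). Tnxb held 36.2, 15.2, 109, 0.638, 18.3 and 3.5 CPM. It was below every neurofibroma in 5 MPNST and above every one in library 3, the library with skeletal muscle markers. The log2 change was -0.91 (SE 0.85, adjusted p = 0.405), and without library 3 it was -2.02 (adjusted p = 0.0483). The part of muscle tissue in the Tnxb level of library 3 was not tested.

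The balance of tenascin-C to tenascin-X differed between benign and malignant tissue. The log2 ratio of Tnc to Tnxb within a library, in CPM + 1 and not per length, averaged -3.65 ± 0.72 across nerves, -3.59 ± 0.38 across neurofibromas and 4.05 ± 1.21 across the malignant tumours (SD, n = 6). All 12 nerve and neurofibroma libraries had ratios no higher than -2.73. All 6 MPNST had positive ratios, from 2.3 to 5.93, so the groups did not overlap. Tnc alone was already without overlap and Tnxb was not called, so the ratio is not separate evidence of a change in Tnxb. Tenascin-N (Tnn), the third of the tenascins measured, was at or below 0.45 CPM in 4 MPNST, and reached 20 CPM in library 3 and 221 CPM in library 4. It did not pass the filter; fitted with no filter, its log2 change was 7.89 (SE 2.15, adjusted p = 0.0202), a value that rests on those 2 libraries.

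**Figure D3:**
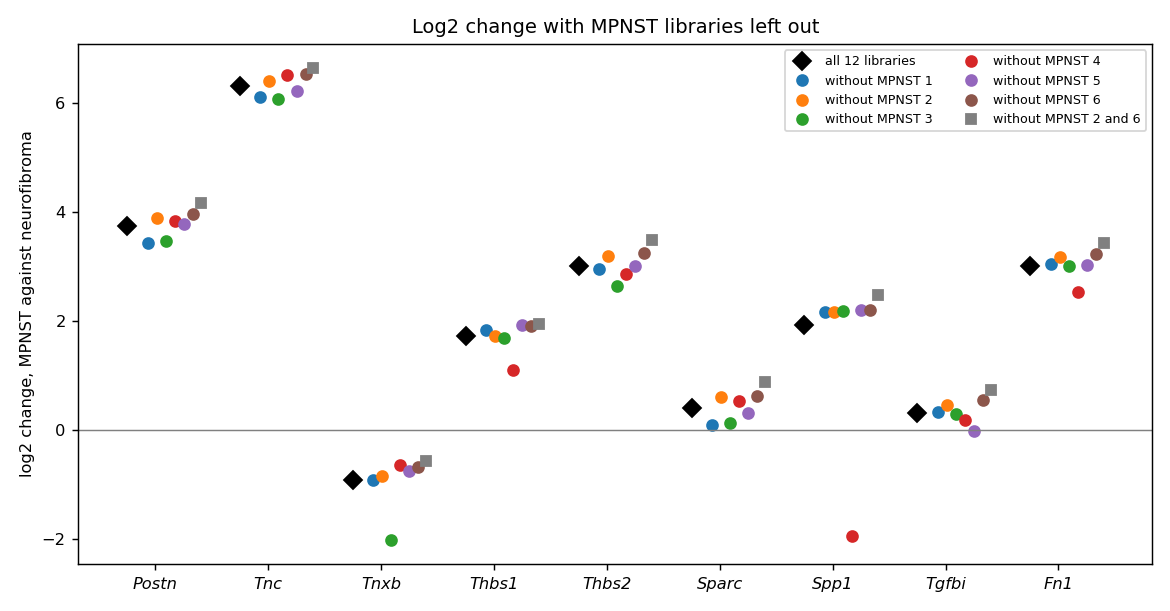
Log2 change of each tested gene between MPNST and neurofibroma (vertical axis) with all 12 libraries (diamond), with 1 MPNST library left out (circles) and without MPNST libraries 2 and 6 (square). Tnc, Postn, Thbs2 and Fn1 stay above 2 throughout, while Spp1 falls to -1.94 without library 4 and Tnxb to -2.02 without library 3.

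Among the MPNST libraries, fibroblast markers as a sum were high and low together with Postn. The sum of 8 fibroblast markers (Pdgfra, Dcn, Lum, Dpt, Pi16, Col1a1, Col1a2 and Col3a1) lay between 183 and 1224 CPM in nerve and between 1437 and 3254 in neurofibroma. In MPNST libraries 1 to 6 it was 13929, 1891, 11082, 8322, 9351 and 889 CPM. Libraries 1, 3, 4 and 5 had the highest sums and the highest Postn, and libraries 2 and 6 the lowest of both. Tnc did not keep this order: it was lower in library 4 than in library 2, although library 4 had the higher fibroblast sum. The markers did not move as one. In library 6 the 3 collagens summed to 812 CPM, above every nerve (at most 425), and the other 5 markers to 77.3, below every nerve (at least 118). In library 4 the collagens summed to 6841 CPM and Pdgfra reached 1309, while Dcn (136 CPM) and Lum (5.33 CPM) lay below every neurofibroma, where they were at least 775 and 129 CPM. Of the 8 markers, 5 were called higher in neurofibroma than in nerve and 5 in MPNST than in neurofibroma. Of all genes, 7.94% and 25.3% were called higher in these 2 comparisons. Of 8 macrophage markers, 2 and 7 were called higher in those comparisons, and the 3 groups had sums of 37.0 to 165, 117 to 278 and 124 to 2299 CPM. None of the fibroblast or macrophage markers was at 0 throughout a group, and the part of either cell type in the changes of the 10 genes was not tested. Platelet and megakaryocyte markers, another source of thrombospondin-1, summed to at most 18.5 CPM in any library. That highest sum was in nerve library 6, the nerve with the most Thbs1.

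**Figure D4:**
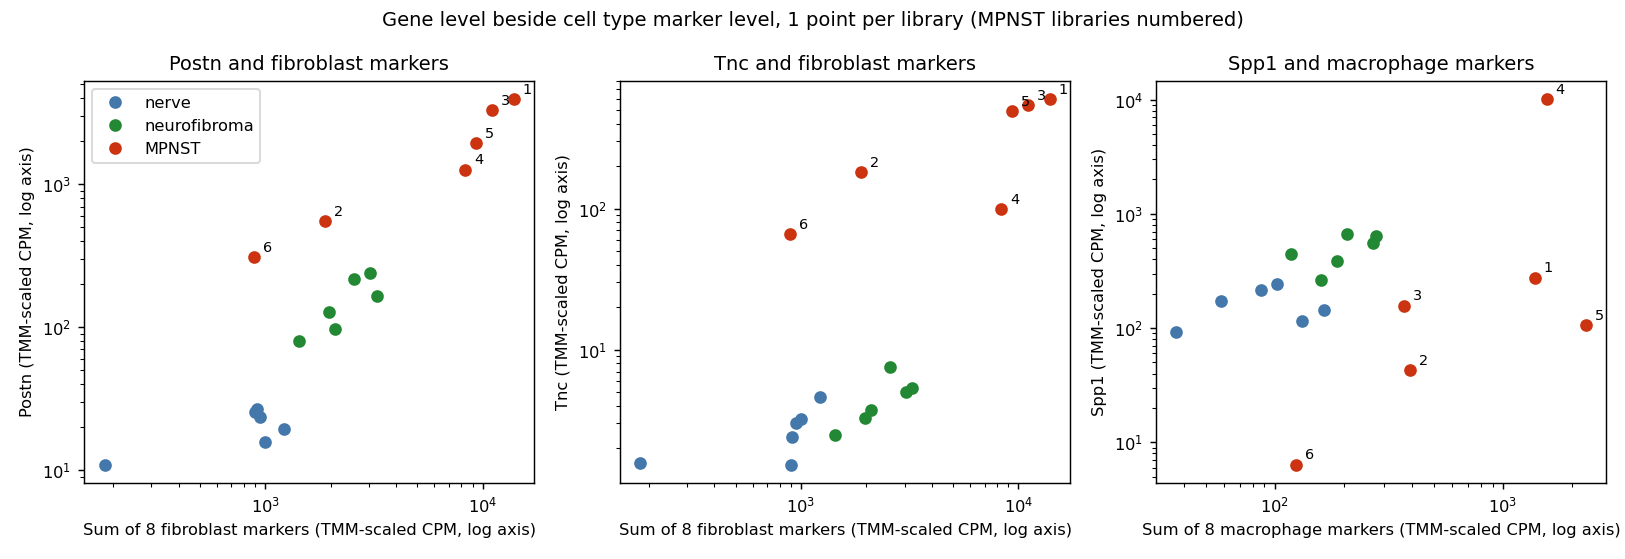
Level of Postn, Tnc and Spp1 (vertical log axes, TMM-scaled CPM) beside the summed level of 8 fibroblast or 8 macrophage markers (horizontal log axes), 1 point per library, MPNST libraries numbered. MPNST libraries 6 and 2 have the lowest fibroblast sums of their group (889 and 1891 CPM) and its lowest Postn (309 and 551 CPM). Tnc is lower in library 4 than in library 2, which has the lower fibroblast sum. Spp1 in library 4 (10055 CPM) stands apart from library 5, which has more macrophage marker RNA.

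The comparison of MPNST with nerve shares its MPNST samples with the preceding comparison and its nerve samples with the first. Of 9 genes tested, 6 rose and 0 fell, against 27.6% of all genes higher and 18.4% lower (46.0% called in all). The median log2 change was 3.51 over the members and 0.22 over all genes. Tnc had a log2 change of 7.03 (SE 0.70, adjusted p = 2.5e-05), or 131-fold, and Postn one of 6.64 (SE 0.70, adjusted p = 3.67e-05), or 100-fold. Thbs2 followed at 4.76 (SE 0.84, adjusted p = 0.000941), Fn1 at 4.11 (SE 0.89, adjusted p = 0.00309), Thbs1 at 3.26 (SE 0.78, adjusted p = 0.00558) and Tgfbi at 2.08 (SE 0.61, adjusted p = 0.0155). Postn, Tnc, Thbs2 and Fn1 were the 4 members without overlap, against 8.75% of all genes in the upward direction. Sparc (1.73, adjusted p = 0.0515), Spp1 (3.51, adjusted p = 0.0640) and Tnxb (-0.51, adjusted p = 0.655) were not called.

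Without MPNST libraries 2 and 6, Sparc (2.26, adjusted p = 0.00108) and Spp1 (4.08, adjusted p = 0.0109) were called as well. That made 8 of 9 members higher than in nerve, against 32.9% of all genes. For Spp1 the value again rests on library 4, since without that library alone it was -0.36 (adjusted p = 0.690). Within the first run of columns, Postn differed from nerve by 7.02 (adjusted p = 0.0055) and Tnc by 6.60 (adjusted p = 0.00627). Within the second they differed by 6.26 (adjusted p = 0.0285) and 7.36 (adjusted p = 0.0242). Fn1 was called in the first run (5.05, adjusted p = 0.0176) and not in the second (3.21, adjusted p = 0.163).

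Divided by the length of the longest coding transcript in GENCODE M21, the levels of the members can be set beside each other. Sparc was the highest in nerve, at 325 ± 133 CPM per kilobase, followed by Spp1 at 108 ± 38.5 (SD, n = 6); the other members had means between 0.0498 and 12.7. In neurofibroma the order was Sparc at 826 ± 225, Spp1 at 328 ± 104, Postn at 48.4 ± 20.3 and Tgfbi at 43.6 ± 13.5 CPM per kilobase. Postn and Tgfbi, neighbours in that order, did not differ beyond their spread. In MPNST the mean of Spp1 was 1177 ± 2693 CPM per kilobase, set by library 4. Sparc was at 1000 ± 843, Postn at 588 ± 460 and Fn1 at 113 ± 92.6, and neighbours in this order overlapped. By mean, Postn was the fifth of the 10 genes in nerve and the third in neurofibroma and MPNST. By median, which a single library moves less, it was the fourth in nerve (6.71 CPM per kilobase), the fourth in neurofibroma (45.6, beside 46.2 for Tgfbi) and the second in MPNST (501, after Sparc at 971 and before Fn1 at 111 and Spp1 at 87.3).

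Some libraries were low for most members. Nerve library 2 held the lowest nerve value for 9 of 10 members, and neurofibroma library 5 the lowest neurofibroma value for 8. These were also the libraries with the lowest fibroblast marker sum of their groups, 183 and 1437 CPM. Other marker sums were low there as well. Nerve library 2 had the lowest nerve sums of Schwann cell (5289 CPM), macrophage (37.0) and pericyte and smooth muscle markers (122). Neurofibroma library 5 had the lowest pericyte and smooth muscle sum (231 CPM) and the highest sensory neuron sum (8553 CPM) of its group. The lowest Schwann cell and macrophage sums in neurofibroma were in library 3. MPNST library 6 was the lowest MPNST for 7 members and among the lowest 2 for all 10. High values were more divided: in nerve, libraries 1, 3 and 6 were each the highest for 3 members, and MPNST library 4 was the highest for 4 and the lowest for Tnxb. The highest over the lowest library within a group was 2.47 for Postn in nerve, 2.99 in neurofibroma and 12.7 in MPNST. For Spp1 the same ratio was 2.67, 2.55 and 1583, and for Tnxb it was 3.83, 2.13 and 171.

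The genes closest in pattern to each member were found by the mean absolute difference of log2(CPM + 1) values, each gene centred on its own mean, over the 18 samples and 14774 genes. For Postn these were Emp1 (0.65), Col3a1 (0.68), Col1a1 (0.74), Col8a1 (0.78) and Timp1 (0.79). Collagen genes thus made up 3 of those 5. Fn1 was closest to Col3a1 (0.51), Thbs2 to Mmp2 (0.47), Thbs1 to Ltbp1 (0.58) and Sparc to Hspg2 (0.27). Tgfbi was closest to Meox1 (0.39), Tnxb to Chrdl1 (0.44), Tnc to Ccl6 (0.75), Tnn to Mmp10 (0.57) and Spp1 to Itm2a (0.68). Among the members themselves, the closest pair was Sparc and Tgfbi (0.53), followed by Thbs2 and Fn1 (0.70).

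Other matricellular genes were followed as a list of 26, of which 24 were tested (Ccn5 and Ccn6 were not). In neurofibroma 4 rose against nerve and 1 fell, where 7.94% and 6.00% of all genes did, with a median log2 change of -0.09, beside -0.02 over all genes. Ecm1 rose by 1.57 on the log2 scale (SE 0.33, adjusted p = 0.0106), Fbln7 by 1.08, Ccn4, a Wnt-induced secreted protein, by 0.92, and Fbln5, which takes part in elastic fibre assembly, by 0.53. Spock1, a testican proteoglycan, fell by 0.56. In MPNST 8 rose and 7 fell against neurofibroma (7 and 7 with RLE scaling), where 25.3% and 16.8% of all genes did, with a median of 0.40 beside 0.22 over all genes. Those that rose included Fbln1 (3.57), Ccn2 (2.99), Thbs3 (2.93) and Ccn1 (2.5), the last of which, with Ccn2, is a known target of YAP. Those that fell included Ccn3 (-2.95) and Spock2 (-4.66), a testican of nervous tissue whose mean was 1393 ± 207 CPM in neurofibroma and 54.0 ± 110 in MPNST (SD, n = 6). Without MPNST libraries 2 and 6, 13 rose and 8 fell of 25 tested, where 30.7% of all genes rose and 28.5% fell. Against nerve, 10 rose and 6 fell, where 27.6% and 18.4% of all genes did, among them Ecm1 (3.24) and Mgp (4.64), the matrix Gla protein that inhibits calcification.

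Of 22 receptors known to bind the member proteins, 7 rose in neurofibroma and 1 fell, against 7.94% and 6.00% of all genes, with a median log2 change of 0.46. Integrin subunits of the alpha-v group were among them: Itgav rose by 1.17 (SE 0.21, adjusted p = 0.00594), Itgb8 by 1.01 and Itgb5 by 0.64. Itgav went from 68.0 ± 24.7 to 154 ± 27.7 CPM (SD, n = 6 each). The heparan sulphate proteoglycan Sdc4 rose by 1.22, and Itga3, an alpha subunit of laminin receptors, fell by 0.47. In MPNST 7 rose and 2 fell against neurofibroma, where 25.3% of all genes rose and 16.8% fell, with a median of 0.81. The fibronectin receptor subunit Itga5 rose by 3.49 (SE 0.74, adjusted p = 0.00334), from 5.27 ± 2.15 to 54.9 ± 64.6 CPM, Itgb7 by 3.87, Itga4 by 1.91 and Sdc1 by 1.65. Cntn1 and Ptprz1, neural receptors of tenascins, fell by 5.64 and 1.71. Sensory neuron markers moved with them: the sum of 8 was between 6.66 and 71.0 CPM in MPNST libraries 1 to 5 and 3009 in library 6, against 6352 to 8553 in neurofibroma, and 5 of 8 were called lower. The part of neuronal RNA in the falls of Cntn1, Ptprz1 and Spock2 was not tested. Without MPNST libraries 2 and 6, 11 receptors rose (30.7% of all genes) and 2 fell (28.5% of all genes). Against nerve 10 rose and 1 fell, where 27.6% and 18.4% of all genes did. Those that rose included Cd36 (4.06), a receptor of thrombospondins, and Itgav (1.95). The receptor that fell was Cntn1 (-5.99). The part of macrophage, adipocyte or other added cells in the rises of Cd36, Itgb7, Itga4 and the other receptors was not tested.

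A list of 18 TGF-beta genes (ligands, receptors, latency proteins and responsive genes) had 0 calls between neurofibroma and nerve by edgeR, with a median log2 change of 0.02. An unadjusted p below 0.05 was seen for 5 of the 18, and in the same edgeR fit for 5215 of all 16464 genes. DESeq2 called 3 higher, among 1934 genes called higher in all. With limma-voom 4 were called higher, among 2113 of 16464 genes. Without nerve library 6 and neurofibroma library 1, edgeR called 3 higher (Ltbp4, Tgfb1 and Ltbp1), against 10.7% of all genes. Postn and Tgfbi were called in neurofibroma in this fit, although the difference between them and the list was not tested. In MPNST 14 of 18 rose against neurofibroma and 0 fell, where 25.3% of all genes rose and 16.8% fell, with a median of 1.88 beside 0.22. Tgfb1 rose by 2.44 (SE 0.43, adjusted p = 0.00117), from 9.15 ± 2.73 to 46.1 ± 28.1 CPM (SD, n = 6 each). Skil, a target of TGF-beta signals that restrains them, rose by 2.09, and Lrrc32 and Nrros, which anchor latent TGF-beta on cell surfaces, by 3.84 and 2.83. Against nerve 14 of 18 rose as well, where 27.6% of all genes did, among them Tgfbr1 (1.73) and Ltbp4 (3.63), a latency protein. Without MPNST libraries 2 and 6, 16 rose and 1 fell (Smad2) against neurofibroma, where 30.7% of all genes rose and 28.5% fell.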

How the data were processed

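Per the labels' protocols, column-purified RNA was made into stranded poly(A) libraries. The authors deposited estimated counts per gene that carry no normalization. The submitters' processing notes name GRCm39 as the build and Salmon 1.4.0, DESeq2 and FastQC as tools, with roles, settings and annotation not given in the sources used here. Each column was matched to a sample by name (0 columns had none). Counts were rounded. Each comparison was fitted on its own 12 libraries with edgeR 4.0.16 (R 4.3.3; its default filterByExpr filter, TMM scaling, two-sided quasi-likelihood test, Benjamini-Hochberg over all genes tested, called below 0.05), after a test on simulated data. Levels are TMM-scaled CPM over 18 libraries; their fold differences can differ from fitted log2 changes. Counting error alone is 31.6% at 10 counts and 3.2% at 1000; no molecular identifiers are mentioned. No libraries were duplicates (lowest chi-square per degree of freedom within a group 17.2). Sample numbers pair nothing. Spp1 overlaps Gm42793 on the same strand (796 counts in 18 libraries), so a few of its counts are uncertain. Promoter windows are from RefSeq; coordinates of the count table's build were not used.

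The 10 genes and all lists were chosen with earlier results of these data known. Named genes were all members and, from each list, the 4 called genes of smallest p in the majority direction and the 2 in the minority direction; Ltbp1 and Smad2, and Tgfb1 and Ltbp4 without nerve library 6 and neurofibroma library 1, were named because few were called there. Alternatives were other scalings and filters, DESeq2 1.42.0, limma-voom (limma 3.58.1), a joint fit, a stricter threshold and left-out libraries. The runs of columns were added after seeing the data.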

Additional observations from a re-analysis of the deposited data

Results flagged for a closer look

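In each gene and group of 6 libraries, the gap of the highest or lowest library to its nearest neighbour was compared with the whole range of the group. Of 30 groups, 2 had a gap above Dixon's critical share on the log2(CPM + 1) scale, where chance gives about 1 in 20. Tnn was highest in nerve library 3, at 0.953 CPM, with the next library at 0.266; the higher value stands for 17 counts. Tgfbi was lowest in nerve library 2, at 11.2 CPM, with the next at 33.7. Nerve library 2 held the lowest nerve value of 9 of the 10 genes.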

How the results depend on the processing

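Of 693 values of a member under an alternative, 627 kept their direction and their side of the threshold, 23 came to pass it, 36 no longer did and 7 reversed. Tnc and Postn were called in both MPNST comparisons under 24 settings of tool, scaling, filter, threshold and left-out libraries. No paired analysis was possible because the labels give no replicate numbers that groups share. The cause of each change below was not tested. Spp1 reversed between MPNST and neurofibroma with limma-voom (-1.06), without MPNST library 4 (-1.94) and in the second run of columns (-2.26), and against nerve without library 4 (-0.36) and in the second run (-0.90). Tgfbi reversed against neurofibroma without MPNST library 5 (-0.0154), and Tnxb against nerve in the second run (0.0773). Leaving out 1 library, values ran from -1.94 to 2.19 for Spp1 and from -0.0154 to 0.549 for Tgfbi against neurofibroma, and from -0.36 to 3.77 for Spp1 against nerve.

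Between neurofibroma and nerve, 2295 genes were called (1307 higher, 988 lower). The count was 1438 with no filter, 3549 with DESeq2, 4026 with limma-voom, 2 in a joint fit of all 18 libraries and 520 at an adjusted p below 0.01. The first run of columns gave 0 and the second gave 5, where 3002 and 2796 genes had an unadjusted p below 0.05. Requiring 1 CPM in 6 samples gave 1197 higher and 1298 lower. Of the members, the joint fit called 0 (5 at an unadjusted p below 0.05) and the threshold of 0.01 called 3, and 0 were called in either run. Leaving out 1 library gave 1147 to 3817 genes and 5 to 7 members.

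Between MPNST and neurofibroma, 6948 genes were called (4176 higher, 2772 lower). The count was 4063 at 0.01, 11247 without MPNST libraries 2, 3 and 6, and 4375 and 1473 in the runs; limma-voom gave 4707 higher and 5040 lower. Members called were 3 and 1 in the runs. Leaving out 1 library gave 5899 to 9123 genes and 4 to 6 members. Between MPNST and nerve, 7534 genes were called (4527 higher, 3007 lower), 4633 at 0.01 and 1136 in the second run; limma-voom gave 5140 higher and 5242 lower. Members called in the second run were 2, and leaving out 1 library gave 6508 to 9447 genes and 6 to 8 members.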
